A study of Arabidopsis thaliana with 9 samples.

Results

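Leaves of Arabidopsis thaliana plants homozygous for atxr5 and for atxr6hyp (hyp/hyp) were compared with leaves of the wild type Col (WT) by RNA sequencing, over the 17632 genes, of 27655 in the table, whose mean over the 6 libraries reached 1 TPM. Each genotype had 3 libraries, out of 9 in the whole series, and the other 3 libraries carried 1 copy each of atxr6hyp and atxr6c-1 beside homozygous atxr5. The plants were 3 weeks old, raised at 22 °C in days of 16 h light and nights of 8 h. The labels do not say whether the libraries of a genotype came from separate plants, how many plants a library pooled, or what lesion atxr5 and atxr6hyp carry. The p-values therefore measure the spread between these libraries, which may be technical.

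ATXR5 and ATXR6 are histone methyltransferases that place a single methyl group on lysine 27 of histone H3, chiefly the replication-dependent H3.1 variant. In Arabidopsis, loss of both is known for transcription of silenced transposons, for extra DNA copies of heterochromatin in endoreduplicating cells and for a DNA damage response. That response runs through SOG1, a NAC-type transcription factor, which acts on inhibitors of cyclin-dependent kinases and on repair genes. The functions that changed beside the DNA damage genes are described here.

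The values are TPM, a scale of transcripts per total that adjusts for gene length and depth, and differences are hyp/hyp minus WT on the scale log2(TPM + 1), tested with limma. A gene is called where the p-value adjusted by Benjamini-Hochberg is below 0.05 and the log2 difference reaches 1 in either direction. Depth recovered from the low values was 21289647 to 29027742 reads in hyp/hyp libraries and 29485850 to 33336230 reads in WT libraries. Across the genes tested, Pearson's r of log2(TPM + 1) among the hyp/hyp libraries lay between 0.979 and 0.993, and among the WT libraries between 0.994 and 0.995. Within hyp/hyp, replicate 3 stood apart, with r of 0.979 and 0.987 to the others, which had r of 0.993 with each other. Genes are not independent replicates, so these coefficients describe the libraries. The leaf markers of the mesophyll were abundant in every library, as the labelled tissue has them, while 2 of 12 shoot meristem markers, 4 of 16 flower and pollen markers and 6 of 17 root markers were at 0 in all 6 libraries.

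In hyp/hyp against WT, 491 genes were called, 2.78% of those tested. The calls were mostly upward, with 402 genes higher (2.28%) and 89 lower (0.505%) in hyp/hyp. In 490 of the 491 called genes, and in 47.2% of all genes tested, the 3 hyp/hyp values did not overlap the 3 WT values. The rises also reached further than the falls. Among the genes called higher, 74 had a log2 difference of at least 2 and 10 of at least 4, whereas 2 of the genes called lower reached −2, MAF5 and AT5G50915. The median log2 difference was 1.35 over genes called higher, −1.16 over genes called lower and 0.06 over the genes tested. With the adjusted p-value alone, 3634 genes passed (20.6%), 1989 higher (11.3%) and 1645 lower (9.33%), so 54.7% were higher, and quantile normalization gave 1752 higher and 2354 lower (42.7% higher). The call threshold cuts a dense range: 100 called genes had an absolute log2 difference between 1 and 1.1, and 141 uncalled genes with an adjusted p-value under 0.05 lay between 0.9 and 1.

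**Figure D1:**
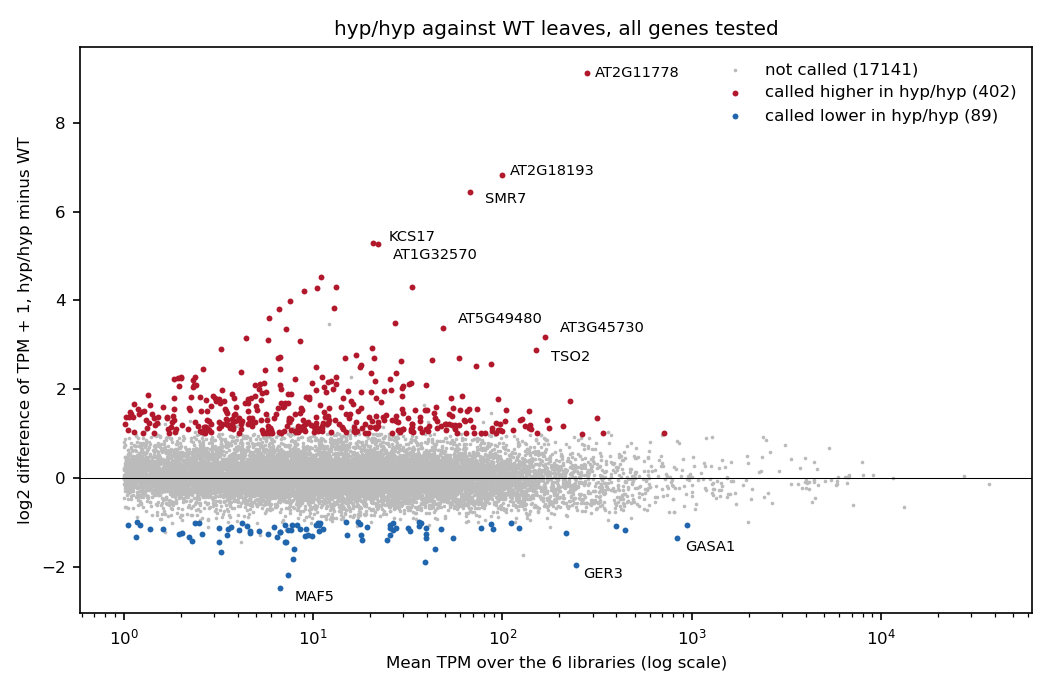
Each point is 1 of the 17632 genes tested, by mean TPM over the 6 libraries (log scale) and by its log2 difference of TPM + 1, hyp/hyp minus WT. The 402 genes called higher in hyp/hyp spread up to a log2 difference of 9.13 (AT2G11778), while the 89 called lower reach down to −2.47 (MAF5).

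Without hyp/hyp replicate 3, 390 genes were called (2.21%), 317 higher (1.8%) and 73 lower (0.414%), and 350 genes were called with and without it. Of the 141 calls lost, 118 had been higher. Replicate 3 held the highest of the 3 hyp/hyp values for 276 of the genes called higher (68.7%) and for 52.8% of the genes tested. It was above 2 times the mean of replicates 1 and 2 for 87 of the genes called higher (21.6%), against 2.01% of the genes tested. The called genes thus fall into some that were even across the 3 hyp/hyp libraries and some that were far higher in replicate 3, and for the gene groups described at length the counts without that library are given too. Several named genes share bases with another annotated gene, among them AT5G60250, AT1G32575, TSO2, RRTF1, WRKY53, LNK3, KCS2, COBL8, RING1B, CLF, LHCB2.3 and AT5G27850. Whether the counting used strand is not given in the sources used here, so reads of such pairs cannot be told apart.

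The lists differed in how even the libraries were. The median over the tested DNA damage genes lay 1.9, 1.76 and 1.86 above the WT mean (log2) in hyp/hyp replicates 1, 2 and 3. The corresponding medians were 0.17, 0.47 and 0.99 for genes of pattern-triggered immunity, and 0.00, 0.05 and 0.11 over all genes tested. RRTF1, a redox-responsive ERF transcription factor chosen after its values were seen, shows the extreme. It had 18.2, 40.04 and 146 TPM in hyp/hyp leaves, against 14.3, 6.41 and 12.1 TPM in WT leaves. Its difference was 2.09 (SE 0.66, adjusted p = 0.0482) and 1.3 (adjusted p = 0.103) without hyp/hyp replicate 3, so its call was lost without that library, and it was also lost without hyp/hyp replicate 2 or any WT library, and under quantile normalization and median-of-ratios scaling.

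**Figure D2:**
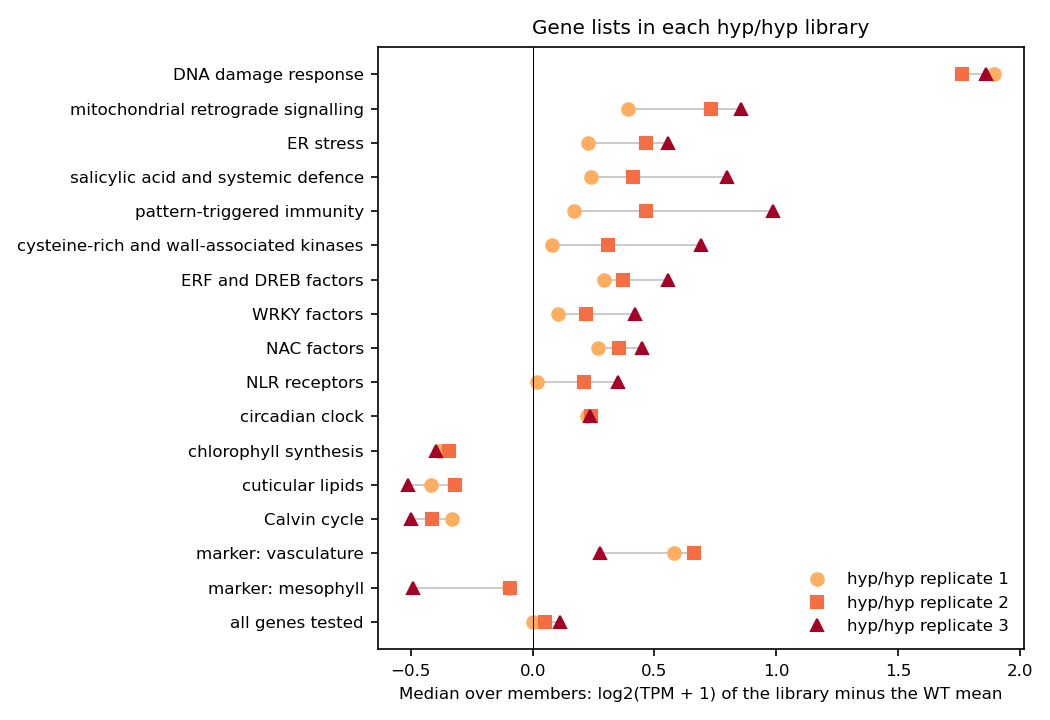
For each gene list, the 3 symbols give the median over its tested members of log2(TPM + 1) in 1 hyp/hyp library minus the WT mean. DNA damage genes and clock genes sit close together in the 3 libraries, whereas pattern-triggered immunity spreads between 0.17 in replicate 1 and 0.99 in replicate 3.

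The mutated genes serve as a check of the labels. ATXR5 had 2.05, 1.96 and 1.5 TPM in hyp/hyp leaves, against 4.24, 4.38 and 4.23 TPM in WT leaves (log2 difference −0.90, SE 0.11, adjusted p = 6.39e-04). ATXR6 had 0, 2 and 3 reads in hyp/hyp libraries, against 40, 41 and 41 reads in WT libraries, and its mean was under the minimum of 1 TPM, so it had no test here. Transcripts of both genes were thus lower in the mutant libraries than in any WT library.

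The gene beside ATXR6 rose while ATXR6 itself was nearly absent. AT5G24340 (chromosome 5, 8297280 to 8300502, plus strand), annotated as a protein with a 3'-5' exonuclease domain, runs in the opposite direction, with 120 bases between the starts of the pair. It had 24.8, 32.9 and 73.2 TPM in hyp/hyp leaves, against 8.22, 6.66 and 7.83 TPM in WT leaves, and every hyp/hyp library was above every WT library. It rose 5.77-fold in the means (log2 difference 2.23, SE 0.34, adjusted p = 0.00223), and the difference was 1.79 (adjusted p = 0.00139) without hyp/hyp replicate 3. Of the nearest genes on either side of the pair, PTAC7, AT5G24318, AT5G24320, AT5G24350 and AT5G24352 could be tested and were not called, with log2 differences of −0.51, 0.22, 0.23, 0.19 and 0.34. AT5G24340 was chosen after its values were seen. The stretch that both genes start from, TAIR10.1 chr5:8297160-8297279 on the plus strand, lies outside both gene models and is shown because it is the shared upstream region of the pair:
ATXR6 to AT5G24340: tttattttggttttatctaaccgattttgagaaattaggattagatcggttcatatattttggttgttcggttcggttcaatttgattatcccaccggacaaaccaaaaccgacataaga

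Some genes called higher were nearly silent in WT leaves. Of the genes tested, 333 had a WT mean under 1 TPM and reached the minimum for testing only through their hyp/hyp values, and 86 of these were called higher. As the minimum itself favours a rise in such genes, the count is a description. No read was found in any WT library for 7 of the genes called higher. AT1G32570, an uncharacterized gene (chromosome 1, 11776765 to 11777557, plus strand), had 36.7, 44.7 and 49.7 TPM in hyp/hyp leaves, against 0.079, 0.0849 and 0.27 TPM in WT leaves (log2 difference 5.28, SE 0.15, adjusted p = 2.09e-08). Its neighbour AT1G32575, also uncharacterized, had 15.8, 15.8 and 16.7 TPM in hyp/hyp leaves, against 1.04, 0.996 and 0.992 TPM in WT leaves (log2 difference 3.09, SE 0.11, adjusted p = 8.68e-08). Both were even across the hyp/hyp libraries.

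AT5G60250, a RING-type zinc finger gene, had 25.3, 25.8 and 27.2 TPM in hyp/hyp leaves, against 0.216, 0.393 and 0.494 TPM in WT leaves (log2 difference 4.31, SE 0.11, adjusted p = 5.08e-09). AT4G22960, of a family with a domain of unknown function, had 18.9, 18.7 and 25.03 TPM in hyp/hyp leaves, against 0.0559, 0.14 and 0.149 TPM in WT leaves (log2 difference 4.28, SE 0.12, adjusted p = 1.91e-08). AT5G29560, related to the caleosins of oil bodies, had 18.6, 18.3 and 17.02 TPM in hyp/hyp leaves, against 0, 0 and 0.046 TPM in WT leaves, and its WT value stood for 1 read. In each of these genes the groups were far apart and replicate 3 was near the others. DRP4C, a dynamin-related gene, had 10.9, 10.4 and 13.6 TPM in hyp/hyp leaves, against 0.0525, 0 and 0.06 TPM in WT leaves, and AT4G25330, a SAWADEE-domain gene, had 13.5, 12.9 and 13.4 TPM in hyp/hyp leaves, against 0, 0 and 0.0746 TPM in WT leaves, where the single WT value was again 1 read. Both were chosen after their values were seen. AT4G09355 also ranked among the 12 highest differences, but its annotated span is 27 bases inside the long non-coding RNA gene AT4G05715, and its 6, 5 and 4 hyp/hyp reads cannot be told apart from that gene's.

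Some of these genes lay among pseudogenes, which in Arabidopsis are dense around the transposon-rich centromeres. A neighbourhood was called pseudogene-rich, by a rule set after the values were seen, where pseudogenes made up at least 50% of the protein-coding genes and pseudogenes within 250 kb on either side. Of the 276 genes tested in such neighbourhoods, 26 were called higher and 1 lower, where 2.28% and 0.505% of all genes were. Of the 26 genes, 15 had a WT mean under 1 TPM and so reached the minimum for testing only through their hyp/hyp values. Genes of these neighbourhoods that were low in both genotypes had no test, so the count is not read against the share over all genes. Each chromosome contributed, with 7 genes each from chromosomes 2 and 3, 5 from chromosome 5, 4 from chromosome 1 and 3 from chromosome 4. Replicate 3 was highest for 8 of the 26, with a median ratio of 0.975 to the mean of replicates 1 and 2, whereas the 376 genes called higher elsewhere on the chromosomes had it highest for 268 and a median ratio of 1.3.

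The examples described below from these neighbourhoods were not highest in replicate 3. Others were, among them AT2G13547, AT5G28610 and BZIP60, at 7.01, 3.63 and 2.68 times the mean of replicates 1 and 2. AT2G11773 (chromosome 2, 4724036 to 4724143, minus strand), an uncharacterized gene next to the top gene of the comparison, AT2G11778, had 25.1, 22.96 and 18.2 TPM in hyp/hyp leaves (38, 25 and 26 reads) and no read in WT leaves. Set against a floor of 3 reads per WT library, it was at least 11.9-fold higher. AT2G09840, annotated as a zinc-ion-binding nucleic acid binding protein, had 107, 68 and 72 reads in hyp/hyp libraries and 0 in WT libraries, at least 32.8-fold higher. AT2G06904, with the same annotation, had 56, 34 and 21 reads in hyp/hyp libraries and 0 in WT libraries, at least 14.8-fold higher. In these 3 genes replicate 1 had the most reads of the hyp/hyp libraries, unlike in the genes that were highest in replicate 3. AT5G35120, of the MADS-box family, had 11.2, 9.49 and 5.61 TPM in hyp/hyp leaves, against 0.193, 0 and 0 TPM in WT leaves, where the WT value was 1 read. QQS, a gene known in Arabidopsis for its effect on starch content and for silencing by DNA methylation, had 51.7, 56.7 and 53.3 TPM in hyp/hyp leaves, against 10.02, 13.96 and 10.7 TPM in WT leaves (log2 difference 2.14, SE 0.14, adjusted p = 1.26e-05). Apart from AT2G11773 and BZIP60, these were chosen after their values were seen.

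Called genes also stood side by side. Of the 402 genes called higher, 82 (20.4%) were next to another gene called higher among the tested genes of their chromosome, whereas 4.47% of all genes tested were next to one. Of the 87 nuclear genes called lower, 2 (2.3%) were next to each other, whereas 0.975% of all genes tested were next to a gene called lower. On chromosome 3, AT3G29631, AT3G29633 and AT3G29639 formed such a row. AT3G29639 had 28.2, 30.2 and 16.8 TPM in hyp/hyp leaves, against 0.67, 0.864 and 0.816 TPM in WT leaves (log2 difference 3.83, SE 0.22, adjusted p = 3.43e-06). AT3G29631, annotated as a nuclease, had 93.9, 76.8 and 52.3 TPM in hyp/hyp leaves, against 10.8, 9.31 and 11.96 TPM in WT leaves (log2 difference 2.66, SE 0.23, adjusted p = 7.46e-05), and shares bases with the annotated gene AT3G05845. On chromosome 5, AT5G22520, AT5G22530 and AT5G22540 formed another, with differences of 1.67, 1.52 and 1.76.

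Among 35 tested DNA replication genes 1 was called, a share near the 2.28% called higher over all genes. The call was TSO2, the small subunit of ribonucleotide reductase, which is also on the DNA damage list, with 261, 264 and 269.9 TPM in hyp/hyp leaves, against 36.6, 40.6 and 28.7 TPM in WT leaves (log2 difference 2.89, SE 0.12, adjusted p = 3.52e-07). TK1a, a thymidine kinase of nucleotide salvage, had 158, 144 and 149 TPM in hyp/hyp leaves, against 24.4, 26.4 and 22.9 TPM in WT leaves (log2 difference 2.57, SE 0.09, adjusted p = 1.01e-07). POLD4, a subunit of DNA polymerase delta, had 90.7, 90.8 and 110.4 TPM in hyp/hyp leaves, against 32.4, 35.4 and 32.2 TPM in WT leaves (log2 difference 1.51, SE 0.10, adjusted p = 1.07e-05). TK1a and POLD4 are on no list and were chosen after their values were seen. Of the helicase genes of replication forks, MCM2, MCM3, MCM4 and MCM6 were not called and had log2 differences of −0.44, −0.40, −0.41 and −0.41, with adjusted p-values of 0.02, 0.0175, 0.0257 and 0.0176. The median over the list was −0.19, against 0.06 over all genes. By the adjusted p-value alone 8 members were lower and 2 higher, where 9.33% and 11.3% of all genes were.

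In the cell cycle lists, 1 mitotic gene (4%) and 2 endoreduplication and inhibitor genes (7.14%) were called higher, against 2.28% of all genes. Of 25 tested mitotic genes, CYCB1;1, a B-type cyclin that is also a DNA damage marker, was called, with 12.1, 10.2 and 11.1 TPM in hyp/hyp leaves, against 0.413, 0.5 and 0.295 TPM in WT leaves (log2 difference 3.11, SE 0.10, adjusted p = 4.12e-08). Of 28 genes of endoreduplication and inhibition of cyclin-dependent kinases, SMR7 and KRP6 were called. KRP6, an inhibitor of the KIP-related family, had 30.2, 31.5 and 32.5 TPM in hyp/hyp leaves, against 11.2, 11.6 and 11.4 TPM in WT leaves (log2 difference 1.39, SE 0.08, adjusted p = 3.86e-06). The medians were 0.09 for the mitotic genes, which changed sign to −0.02 under quantile normalization, and 0.13 for the inhibitors.

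No tested member of the gene silencing list was called, where 2.78% of all genes were. A list of 29 genes can hold no call at that share, so the lack of one is not read as a difference. Among these 29 genes, on a list that holds DNA methyltransferases, genes of RNA-directed DNA methylation and 3 VIM genes, limma called none, with 5 at an unadjusted p under 0.05, and limma voom on the recovered reads called 1. The median was 0.0049 and changed sign under 2 of 3 other scalings. RDR2, an RNA-dependent RNA polymerase of small RNA production, was the single member past the adjusted p-value, with 4.62, 4.36 and 3.53 TPM in hyp/hyp leaves, against 1.87, 1.64 and 2.02 TPM in WT leaves (log2 difference 0.86, SE 0.15, adjusted p = 0.00404). Among 17 Polycomb genes limma called none, with 4 at an unadjusted p under 0.05, and voom called 1. RING1B, of the Polycomb repressive complex that acts on histone H2A, was higher (log2 difference 0.85, SE 0.15, adjusted p = 0.00443) and CLF, a histone H3 lysine 27 methyltransferase, lower (log2 difference −0.38, SE 0.09, adjusted p = 0.018) by the adjusted p-value alone.

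Some chromatin genes outside those lists were called, and were chosen after their values were seen. AGO2, an Argonaute protein of small RNA defence and of DNA repair in Arabidopsis, had 32.7, 35.3 and 33.6 TPM in hyp/hyp leaves, against 8.28, 9.49 and 9.44 TPM in WT leaves (log2 difference 1.79, SE 0.08, adjusted p = 5.78e-07). HDA18, a histone deacetylase, had 7.37, 7.32 and 7.96 TPM in hyp/hyp leaves, against 1.33, 1.41 and 1.74 TPM in WT leaves (log2 difference 1.78, SE 0.10, adjusted p = 2.79e-06). AT1G05490 (chr31), a chromatin remodelling protein, had 1.99, 1.97 and 1.98 TPM in hyp/hyp leaves, against 0.163, 0.162 and 0.143 TPM in WT leaves (log2 difference 1.37, SE 0.10, adjusted p = 2.70e-05). VIM4, of the family that reads DNA methylation, had 5.44, 3.74 and 4.19 TPM in hyp/hyp leaves, against 0.29, 0.156 and 0.071 TPM in WT leaves, but 78.2% of its 50-base windows occur elsewhere in the genome, so its reads could belong to a VIM paralogue. Among 41 histone genes, HIS1-3, a linker histone induced by drought, was the single call, at 1.21 (2.28% higher over all genes). Its call was lost at 0.95 (adjusted p = 0.0211) without hyp/hyp replicate 3.

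Promoters of several called genes were read from TAIR10.1, 250 bases upstream of the annotated start, since members of a pathway moved together. The motif of CTT and AAG spaced by 7 bases of any kind, known as the site SOG1 binds, reads the same on both strands. It occurred in 59 of 402 promoters of genes called higher (14.7%), in 3 of 87 of genes called lower (3.45%), in 8.81% of the promoters of genes tested and in 9.71% of the 27444 promoters read. Among the 20 tested DNA damage genes it occurred in 6. The longer motif of CTTG and CAAG spaced by 5 bases, which is a special case of it, is a form of the element that mitochondrial stress NAC factors bind. It occurred in 4 of 21 tested genes of mitochondrial retrograde signalling and in 0.445% of the promoters of genes tested. A match describes the letters and not binding. The following 5 promoters are shown because they hold a match and belong to genes at or near the top of the DNA damage, AAA-ATPase, mitochondrial and endoplasmic reticulum lists. The letters are from RefSeq, and capitals mark the fixed letters CTT and AAG:
SMR7, minus strand of chr3:10231568-10231817: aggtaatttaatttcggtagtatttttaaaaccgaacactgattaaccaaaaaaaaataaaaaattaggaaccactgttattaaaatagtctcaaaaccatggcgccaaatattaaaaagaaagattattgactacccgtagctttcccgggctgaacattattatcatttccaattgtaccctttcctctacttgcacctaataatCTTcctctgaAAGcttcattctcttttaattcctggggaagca
PARP2, plus strand of chr4:1049516-1049765: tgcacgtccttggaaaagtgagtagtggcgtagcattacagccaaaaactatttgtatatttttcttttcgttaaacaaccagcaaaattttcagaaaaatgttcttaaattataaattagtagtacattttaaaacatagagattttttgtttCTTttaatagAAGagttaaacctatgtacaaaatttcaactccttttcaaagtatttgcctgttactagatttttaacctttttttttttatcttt
AT2G18193, minus strand of chr2:7919346-7919595: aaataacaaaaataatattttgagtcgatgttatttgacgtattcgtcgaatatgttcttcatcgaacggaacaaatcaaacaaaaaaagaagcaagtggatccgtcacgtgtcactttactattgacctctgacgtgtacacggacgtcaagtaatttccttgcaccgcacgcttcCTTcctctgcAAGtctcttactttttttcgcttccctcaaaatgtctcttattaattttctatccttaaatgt
UPOX, plus strand of chr2:9254128-9254377: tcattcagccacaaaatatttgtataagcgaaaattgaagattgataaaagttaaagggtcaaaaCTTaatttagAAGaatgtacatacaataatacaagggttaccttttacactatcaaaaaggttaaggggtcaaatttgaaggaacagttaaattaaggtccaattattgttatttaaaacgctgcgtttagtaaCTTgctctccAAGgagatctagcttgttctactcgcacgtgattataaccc
BIP3, minus strand of chr1:2931851-2932100: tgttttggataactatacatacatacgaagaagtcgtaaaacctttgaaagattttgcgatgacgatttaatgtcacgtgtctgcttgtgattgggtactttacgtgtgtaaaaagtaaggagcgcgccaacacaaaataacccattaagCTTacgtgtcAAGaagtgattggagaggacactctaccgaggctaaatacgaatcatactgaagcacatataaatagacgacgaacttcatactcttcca

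In these promoters the match starts 43 bases before the gene in SMR7, 96 in PARP2, 73 in AT2G18193, 185 and 51 in UPOX and 100 in BIP3. The log2 differences of the 5 genes were 6.45, 4.31, 6.83, 1.94 and 1.78. The second match of UPOX, 51 bases before the gene, has the longer form with CTTG and CAAG.

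In mitochondrial retrograde signalling, a disturbed mitochondrion alters nuclear transcription. Of 21 tested genes of the pathway 5 were called higher and none lower, against 2.28% higher over all genes, and 10 were higher by the adjusted p-value alone. The median was 0.87, and 0.52 with 4 calls without hyp/hyp replicate 3. UPOX (AT2G21640), a marker of oxidative stress with a mitochondrial product, had 35.1, 30.9 and 31.8 TPM in hyp/hyp leaves, against 8.66, 7.73 and 7.01 TPM in WT leaves (log2 difference 1.94, SE 0.09, adjusted p = 9.01e-07). TIM17-1, a subunit of the inner membrane protein import channel, had 33.5, 34.8 and 45.9 TPM in hyp/hyp leaves, against 9.02, 9.83 and 8.22 TPM in WT leaves (log2 difference 1.95, SE 0.12, adjusted p = 6.09e-06). BCS1, a mitochondrial outer membrane AAA-ATPase that responds to salicylic acid, had 49.3, 80.7 and 143 TPM in hyp/hyp leaves, against 27.5, 22.2 and 36.00 TPM in WT leaves (log2 difference 1.53, SE 0.32, adjusted p = 0.00895).

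No hyp/hyp library overlapped WT in these 3 genes, and BCS1 was highest in replicate 3. Over the list, limma's unadjusted p was under 0.05 for 16 members that were higher and 1 that was lower, and voom on the recovered reads called 6 higher and 0 lower. NAC053, a membrane-released transcription factor of this and the proteasome stress pathway, had 38.9, 39.5 and 55.5 TPM in hyp/hyp leaves, against 13.03, 15.7 and 14.1 TPM in WT leaves (log2 difference 1.56, SE 0.17, adjusted p = 4.36e-04). AOX1A, the alternative oxidase that is the usual reporter of this pathway, was higher without a call, at 65.1, 68.4 and 88.01 TPM in hyp/hyp leaves, against 37.3, 39.7 and 41.6 TPM in WT leaves (log2 difference 0.87, SE 0.11, adjusted p = 0.00101).

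Genes of the unfolded protein response, by which the endoplasmic reticulum (ER) adjusts its chaperones, had smaller differences, positive in 17 of 19 tested members. Of these 3 were called higher, against 2.28% over all genes, and 12 were higher by the adjusted p-value alone, against 11.3%. None was lower by limma at an unadjusted p under 0.05 or by voom. The median was 0.41, and 0.32 without hyp/hyp replicate 3, against 0.06 for all genes. BIP3, an inducible ER chaperone of the HSP70 family, had 4.82, 6.03 and 5.58 TPM in hyp/hyp leaves, against 0.879, 0.817 and 0.95 TPM in WT leaves (log2 difference 1.78, SE 0.12, adjusted p = 9.49e-06). NAC103, a transcription factor downstream of BZIP60, had 4.04, 5.74 and 3.83 TPM in hyp/hyp leaves, against 0.375, 0.144 and 0.367 TPM in WT leaves (log2 difference 2.08, SE 0.16, adjusted p = 3.58e-05). Both were far above WT in every hyp/hyp library.

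BZIP60, the transcription factor whose messenger RNA is spliced in this response, was highest in replicate 3. It had 116, 142 and 347 TPM in hyp/hyp leaves, against 75.3, 77.03 and 79.9 TPM in WT leaves (log2 difference 1.2, SE 0.33, adjusted p = 0.0283), and the difference was 0.72 (adjusted p = 0.0108) without hyp/hyp replicate 3, without a call. Leaving out any WT library ended its call too. The abundant chaperones BIP1 and BIP2 had log2 differences of 0.70 (adjusted p = 0.00197) and 0.52 (adjusted p = 0.0121), without a call. Heat shock and chaperone genes outside the ER had no call by limma or voom among 19, with 10 at an unadjusted p under 0.05. HSFB2A, a heat shock transcription factor, was higher by the adjusted p-value alone (log2 difference 0.90, SE 0.17, adjusted p = 0.00543).

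**Figure D3:**
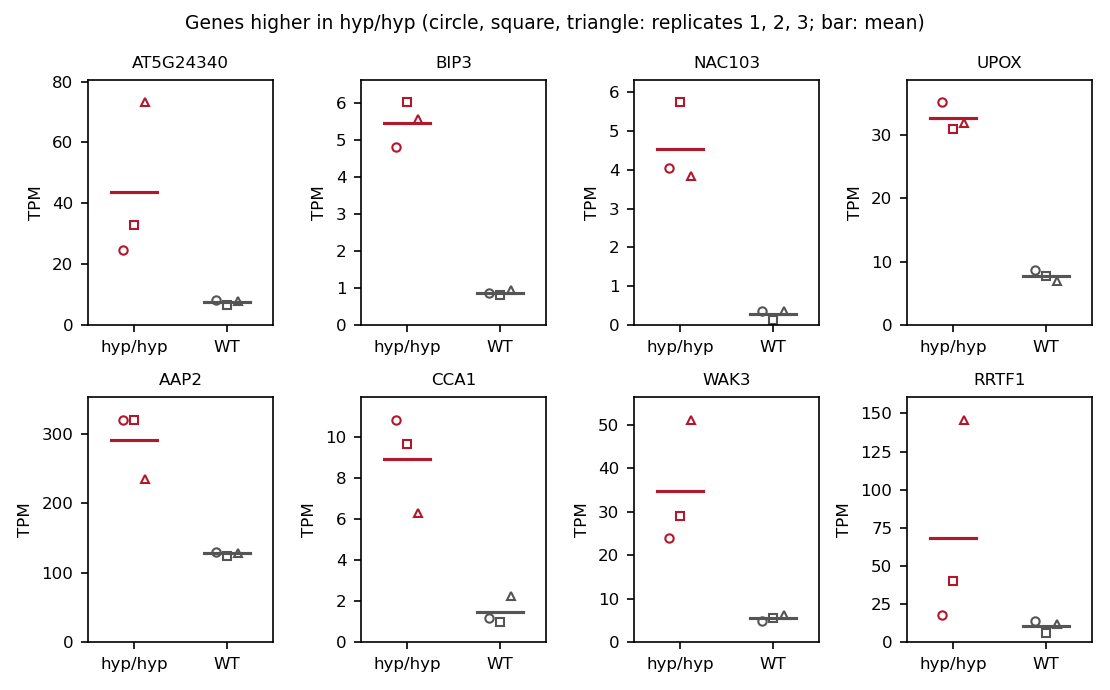
TPM of 8 genes higher in hyp/hyp, with each library as a point (circle, square and triangle for replicates 1, 2 and 3) and the mean as a bar, hyp/hyp left and WT right. BIP3, NAC103 and UPOX lie above WT in each hyp/hyp library, while AT5G24340, WAK3 and RRTF1 are highest in replicate 3, at 73.2, 51.2 and 146 TPM.

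NAC-domain transcription factors, a plant family of stress, senescence and cell wall regulators, had more calls than the WRKY, ERF and DREB or MYB lists. Of 45 tested members, 11 were called higher and none lower, against 2.28% higher over all genes, 38 had a positive difference and the median was 0.35. Without hyp/hyp replicate 3, 8 were called and the median was 0.27. NAC085, a close relative of SOG1 known to act in the DNA damage response, had 4.95, 4.72 and 4.14 TPM in hyp/hyp leaves, against 0.117, 0.202 and 0.134 TPM in WT leaves (log2 difference 2.28, SE 0.11, adjusted p = 6.85e-07). ANAC087, a regulator of developmental cell death in root caps, had 8.86, 9.7 and 10.3 TPM in hyp/hyp leaves, against 1.46, 1.51 and 1.23 TPM in WT leaves (log2 difference 2.14, SE 0.16, adjusted p = 2.19e-05). NAC046, a regulator of leaf senescence and cell death, had 23.8, 27.5 and 17.5 TPM in hyp/hyp leaves, against 5.39, 5.13 and 6.96 TPM in WT leaves (log2 difference 1.8, SE 0.19, adjusted p = 2.72e-04).

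The 3 genes did not overlap with WT in any library. SOG1 itself had 10.2, 10.4 and 12.4 TPM in hyp/hyp leaves, against 10.5, 11.05 and 11.7 TPM in WT leaves (log2 difference −0.01, SE 0.12, adjusted p = 0.953), and its groups overlapped. No NAC gene was lower at an unadjusted p under 0.05 by limma, and voom called 12 higher and 0 lower. Members shared with other lists are counted in each: 4 of the tested NAC genes are on the mitochondrial list, 2 on the ER list and 2 on the DNA damage list. Of 31 senescence and autophagy genes, NAP, a NAC factor of leaf senescence, was the single call (2.28% higher over all genes). NAP had a log2 difference of 1.12 (SE 0.27, adjusted p = 0.0172), and lost its call without hyp/hyp replicate 1, WT replicate 1 or WT replicate 2.

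Calls among immune receptors and defence genes were nearly all higher, and replicate 3 was highest in most of them. The cysteine-rich receptor kinases (CRK) and wall-associated kinases (WAK), cell surface receptors of pathogen and wall signals, had 12 of 43 tested members called higher, against 2.28% over all genes, and CRK42 called lower (0.505% over all genes; −1.15, a call lost without WT replicate 1 or 2). Replicate 3 was highest in each of the 12. Their median was 0.34. Without hyp/hyp replicate 3, 10 were called higher and the median was 0.17. WAK3 had 23.98, 28.96 and 51.2 TPM in hyp/hyp leaves, against 4.85, 5.6 and 6.25 TPM in WT leaves (log2 difference 2.38, SE 0.24, adjusted p = 2.05e-04). CRK36 had 14.5, 15.9 and 30.8 TPM in hyp/hyp leaves, against 2.95, 3.76 and 3.92 TPM in WT leaves (log2 difference 2.17, SE 0.23, adjusted p = 3.60e-04).

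Both were above WT in every hyp/hyp library, with the highest value in replicate 3. CRK7 and CRK6, adjacent on chromosome 4, had differences of 1.94 and 1.84, but 28.2% of the 50-base windows of CRK6 occur elsewhere, so reads could be split between CRK copies. Of 112 intracellular receptors of the nucleotide-binding leucine-rich repeat class (NLR), 5 were called higher and none lower, where 2.28% of all genes were called higher. Their median was 0.20. Without hyp/hyp replicate 3, 3 were called and the median was 0.11. Limma's unadjusted p was under 0.05 for 37 NLR genes that were higher and 7 that were lower, and voom called 7 higher and 0 lower. AT3G25510, a receptor of the TIR type, had 4.34, 6.26 and 6.75 TPM in hyp/hyp leaves, against 0.943, 1.0 and 1.1 TPM in WT leaves (log2 difference 1.73, SE 0.14, adjusted p = 5.20e-05). Of 39 tested genes annotated as receptor-like proteins, a group chosen after the values were seen, 5 were called higher (2.28% over all genes).

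Salicylic acid is the hormone of systemic defence. Of its 28 tested genes 5 were called higher, against 2.28% over all genes, and none lower (median 0.47). Without hyp/hyp replicate 3, 3 were called and the median was 0.32. BGL2, the beta-1,3-glucanase known as PR2, had 169, 198 and 249 TPM in hyp/hyp leaves, against 59.4, 75.4 and 77.6 TPM in WT leaves (log2 difference 1.52, SE 0.16, adjusted p = 2.77e-04). DLO1 (AT4G10500), an enzyme that hydroxylates salicylic acid, had 11.1, 12.1 and 10.04 TPM in hyp/hyp leaves, against 3.61, 3.66 and 4.53 TPM in WT leaves (log2 difference 1.29, SE 0.12, adjusted p = 1.61e-04). WRKY53, a WRKY factor of senescence and defence, was called at 1.09, and the call was lost at 0.67 (adjusted p = 0.0954) without hyp/hyp replicate 3. It was also lost without hyp/hyp replicate 2, WT replicate 1 or WT replicate 2. With a replicate block, the 6 libraries alone, no expression minimum or no mean-variance trend, WRKY53 was not called either.

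WRKY factors, transcription factors of defence, had 6 of 44 members called higher and none lower (2.28% higher over all genes), with a median of 0.24. With hyp/hyp replicate 3 left out, 3 were called and the median was 0.14. WRKY50 had 18.5, 20.13 and 24.6 TPM in hyp/hyp leaves, against 3.31, 4.54 and 3.68 TPM in WT leaves (log2 difference 2.19, SE 0.12, adjusted p = 3.43e-06). WRKY46 had 25.1, 38.3 and 78.6 TPM in hyp/hyp leaves, against 9.81, 9.23 and 15.2 TPM in WT leaves (log2 difference 1.84, SE 0.33, adjusted p = 0.00482), with replicate 3 the highest. Of 48 ERF and DREB factors, 5 were called higher (2.28% over all genes), and 2 without that library, with medians of 0.40 and 0.31. ORA59, at the meeting point of jasmonate and ethylene signalling, had 48.8, 40.8 and 69.5 TPM in hyp/hyp leaves, against 19.5, 20.01 and 22.97 TPM in WT leaves (log2 difference 1.28, SE 0.29, adjusted p = 0.0134), and lost its call without WT replicate 1. By limma's unadjusted p under 0.05, 16, 14 and 24 genes of the salicylic acid, WRKY and ERF lists were higher and 1 of each was lower, and voom called 5, 7 and 7 higher and 0 lower. Pattern-triggered immunity had 1 call among 29 genes (CRK36), against 2.28% called higher over all genes. Of these genes 24 were positive, with a median of 0.50, and 0.32 without hyp/hyp replicate 3.

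Genes with calcium-binding EF hands, chosen after the values were seen, were highest in that library where called. Of 91 tested genes with EF-hand or calmodulin in their description 5 were called higher, where 2.28% of all genes were, and replicate 3 was the highest in all 5, at a median of 2.69 times the mean of replicates 1 and 2. CML37 had 9.87, 17.98 and 49.6 TPM in hyp/hyp leaves, against 3.74, 3.82 and 6.87 TPM in WT leaves (log2 difference 1.95, SE 0.45, adjusted p = 0.0136). CML38 had 55.9, 75.2 and 176 TPM in hyp/hyp leaves, against 34.1, 22.5 and 36.4 TPM in WT leaves (log2 difference 1.55, SE 0.42, adjusted p = 0.0272), and its adjusted p was 0.0564 without hyp/hyp replicate 3. CML38 also lost its call without hyp/hyp replicate 2 or any WT library, and CML37 without WT replicate 1 or 2. AT5G49480, a calcium-binding protein gene, was far above WT in the 3 libraries, with 66.7, 68.6 and 133 TPM in hyp/hyp leaves, against 6.14, 8.17 and 7.36 TPM in WT leaves (log2 difference 3.39, SE 0.29, adjusted p = 7.04e-05). SIP4, a protein kinase that pairs with calcineurin B-like calcium sensors, was even, with 104, 96.8 and 109 TPM in hyp/hyp leaves, against 17.04, 12.6 and 15.9 TPM in WT leaves (log2 difference 2.69, SE 0.11, adjusted p = 2.21e-07), though it shares bases with the annotated gene AT2G30362.

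Several morning genes of the circadian clock were higher in hyp/hyp. Of 29 clock genes 3 were called higher and 1 lower (median 0.25), where 2.28% and 0.505% of all genes were. Without hyp/hyp replicate 3, 4 were called higher and 1 lower. CCA1, the morning repressor at the core of the clock, had 10.9, 9.67 and 6.29 TPM in hyp/hyp leaves, against 1.21, 0.992 and 2.26 TPM in WT leaves (log2 difference 2.0, SE 0.24, adjusted p = 5.92e-04). PRR9, a pseudo-response regulator of the morning, had 6.77, 5.24 and 4.89 TPM in hyp/hyp leaves, against 1.05, 1.15 and 1.58 TPM in WT leaves (log2 difference 1.55, SE 0.24, adjusted p = 0.00258), and 31.3% of its 50-base windows occur elsewhere. RVE2, a relative of CCA1, was lower, with 3.31, 2.56 and 4.56 TPM in hyp/hyp leaves, against 10.98, 15.4 and 11.1 TPM in WT leaves (log2 difference −1.6, SE 0.19, adjusted p = 5.56e-04).

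The groups did not overlap for these 3 genes. LNK3 (AT3G12320), a coactivator of the morning, was also called (log2 difference 1.17, SE 0.21, adjusted p = 0.00411), and RVE8 (0.93) and LNK2 (0.83) were higher by the adjusted p-value alone. Of the evening genes, none of these passed it: TOC1 −0.39 (adjusted p = 0.12), ELF4 −0.36 (adjusted p = 0.0717) and GI 0.07 (adjusted p = 0.703). The motif AAAATATCT is known as the evening element that CCA1 binds. Searched on both strands, it occurred in 8 of 29 promoters of tested clock genes and in 2.64% of those of the genes tested. The promoters of the called genes CCA1, PRR9 and RVE2 held no match to it. The hour of harvest of each library is not in the labels, and its part in these values was not tested. Of 27 flowering time genes, MAF5 alone was called, and it was lower, where 0.505% of all genes were called lower.

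Among 39 genes of nitrogen and sulfur assimilation 1 was called higher and 1 lower, where 2.28% of all genes were called higher and 0.505% lower, and the median was 0.16 (0.09 without hyp/hyp replicate 3). GLN1;1 (AT5G37600), a cytosolic glutamine synthetase and among the 4 largest rises in TPM of the called genes, was the call higher. It had 390.0, 425 and 545 TPM in hyp/hyp leaves, against 166, 169 and 194 TPM in WT leaves (log2 difference 1.34, SE 0.16, adjusted p = 6.39e-04). GLN1;4, chosen after its values were seen, had 16.04, 19.5 and 21.9 TPM in hyp/hyp leaves, against 6.85, 6.68 and 7.64 TPM in WT leaves (log2 difference 1.31, SE 0.26, adjusted p = 0.00716). ASN2, an asparagine synthetase, was the call lower, with 25.1, 22.1 and 21.9 TPM in hyp/hyp leaves, against 52.2, 47.98 and 48.5 TPM in WT leaves (log2 difference −1.07, SE 0.15, adjusted p = 0.00148).

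Of 11 tested genes with amino acid permease in their description, chosen after the values were seen, 3 were called higher (2.28% over all genes). AAP2, which moves amino acids between xylem and phloem, had 320.0, 321 and 235 TPM in hyp/hyp leaves, against 130.5, 125 and 129 TPM in WT leaves (log2 difference 1.17, SE 0.19, adjusted p = 0.00314). AAP4 had a difference of 1.12 and AAP6 of 1.18. NAS3, a nicotianamine synthase of metal transport, was the single call among 30 iron and copper genes (2.28% higher over all genes). It had 17.05, 16.5 and 17.3 TPM in hyp/hyp leaves, against 5.71, 3.5 and 5.4 TPM in WT leaves (log2 difference 1.63, SE 0.16, adjusted p = 2.01e-04).

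Vascular markers had differences of the same sign as these transport genes. Each of the 13 tested vasculature markers had a positive difference, with a median of 0.49, and none was called. By the adjusted p-value alone 5 were higher, against 11.3% over all genes. By library their median lay 0.58, 0.66 and 0.28 above the WT mean in hyp/hyp replicates 1, 2 and 3, so replicate 3 was the lowest. The summed level of the markers was 839 to 1032 TPM in hyp/hyp libraries and 615 to 649 TPM in WT libraries, and no marker of the list was at 0. SUC2, the sucrose transporter of phloem companion cells, had 233, 230.5 and 165 TPM in hyp/hyp leaves, against 133, 131 and 129 TPM in WT leaves (log2 difference 0.65, SE 0.15, adjusted p = 0.0129). The part of vascular tissue in the transport genes was not tested, and in bulk leaf RNA more cells of a type and more RNA per cell cannot be told apart.

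Genes of the cell wall, the cuticle and the chloroplast were among those called lower. Of 41 tested genes of cell wall loosening, 7 were called lower and 1 higher, against 0.505% lower over all genes, and 6 were called lower without hyp/hyp replicate 3. The 7 were EXPA16, an expansin, and 6 xyloglucan endotransglucosylase/hydrolases (XTH), enzymes that cut and rejoin wall xyloglucan: XTH31, XTH33, XTH16, XTH15, XTH17 and XTH19. XTH31 had 1.79, 0.935 and 0.476 TPM in hyp/hyp leaves, against 6.72, 3.84 and 5.8 TPM in WT leaves (log2 difference −1.66, SE 0.35, adjusted p = 0.00899). EXPA16 had 9.53, 13.8 and 16.3 TPM in hyp/hyp leaves, against 36.5, 38.5 and 32.1 TPM in WT leaves (log2 difference −1.39, SE 0.23, adjusted p = 0.00342). XTH16 had 13.4, 19.6 and 10.4 TPM in hyp/hyp leaves, against 44.98, 38.8 and 25.9 TPM in WT leaves (log2 difference −1.29, SE 0.27, adjusted p = 0.0093).

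The genotypes did not overlap in these 3 genes, although XTH31 was low in both. XTH33 (log2 difference −1.44, SE 0.36, adjusted p = 0.0204) lost its call without hyp/hyp replicate 1, WT replicate 1 or WT replicate 2, and XTH15 (log2 difference −1.26, SE 0.32, adjusted p = 0.0205) without hyp/hyp replicate 2, hyp/hyp replicate 3 or WT replicate 2. The expansin EXPA8 was the 1 higher call (log2 difference 1.01, SE 0.29, adjusted p = 0.0335). It was lost without hyp/hyp replicate 1 or 2 or any WT library, and under quantile normalization and median-of-ratios scaling. The list's median was −0.15. Of 99 genes of wall synthesis and pectin, 4 were called lower and COBL8 higher, where 0.505% of all genes were called lower and 2.28% higher. The call of COBL8 was lost without hyp/hyp replicate 3 (adjusted p = 0.063), without hyp/hyp replicate 2 and without any WT library. It was also lost under quantile normalization, with a replicate block, with the 6 libraries alone and under voom. With no expression minimum or no mean-variance trend, COBL8 was not called either. The 4 were arabinogalactan proteins, glycoproteins of the cell surface: AGP17 (−1.36), AGP18, FLA13 and AGP7. AGP18 had 22.8, 22.8 and 22.2 TPM in hyp/hyp leaves, against 62.1, 55.99 and 50.4 TPM in WT leaves (log2 difference −1.27, SE 0.22, adjusted p = 0.00374). FLA13 had 143, 142 and 103 TPM in hyp/hyp leaves, against 328, 291 and 288 TPM in WT leaves (log2 difference −1.23, SE 0.18, adjusted p = 0.00188), and AGP17 lost its call without WT replicate 1.

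Many cuticular lipid genes, which make the wax and cutin of the leaf surface, were lower. Of 46 tested members 4 were called lower, against 0.505% over all genes, and 22 were lower by the adjusted p-value alone, against 9.33% over all genes. A single member was called higher, and the median was −0.42. Without hyp/hyp replicate 3, 3 were called lower and the median was −0.38. CER1, which makes the alkanes of leaf wax, had 5.59, 5.62 and 3.42 TPM in hyp/hyp leaves, against 12.5, 14.03 and 13.5 TPM in WT leaves (log2 difference −1.31, SE 0.16, adjusted p = 8.38e-04). KCS1, an enzyme that elongates very-long-chain fatty acids, had 71.6, 92.5 and 67.6 TPM in hyp/hyp leaves, against 186, 156 and 164 TPM in WT leaves (log2 difference −1.13, SE 0.19, adjusted p = 0.00342). CER3, the partner of CER1, was called at −1.01 (adjusted p = 0.00159) and lost its call without hyp/hyp replicate 3 or WT replicate 1. KCS2, of the same family as KCS1, was called at −1.07.

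KCS17, of the same enzyme family as KCS1 and KCS2, was called higher (5.3). The wax regulators MYB30, MYB94 and MYB96 had differences of −0.28, −0.08 and 0.04, none past the adjusted p-value. For the epidermis and guard cell markers, the median over 14 tested genes was −0.08, and their levels summed to 3173 to 3559 TPM in hyp/hyp libraries and 3094 to 3233 TPM in WT libraries, with none at 0.

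Calvin cycle genes, which fix carbon dioxide in the chloroplast, were lower by small amounts. Of 23 tested members 22 had a negative difference and RBCS1B was called lower (0.505% lower over all genes). By the adjusted p-value alone 18 were lower, against 9.33% over all genes. The median was −0.42 (−0.40 without hyp/hyp replicate 3). RBCS1B, a small subunit of Rubisco, had 272, 261 and 231 TPM in hyp/hyp leaves, against 542, 572 and 511 TPM in WT leaves (log2 difference −1.09, SE 0.23, adjusted p = 0.00874). The other small subunits RBCS1A, RBCS2B and RBCS3B had differences of −0.64, −0.56 and −0.61, which were past the adjusted p-value and not called, and reads of this family can be split between copies. SBPASE, an enzyme particular to the cycle in plants, had −0.57 (adjusted p = 0.00302).

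Genes of chlorophyll synthesis had a median of −0.36 over 22 members and 11 lower by the adjusted p-value alone, against 9.33% over all genes. PCB2, a divinyl reductase, was called lower, with 56.1, 59.5 and 49.97 TPM in hyp/hyp leaves, against 135, 121 and 117 TPM in WT leaves (log2 difference −1.16, SE 0.15, adjusted p = 0.00106). PORA, a light-dependent protochlorophyllide oxidoreductase, was called higher, with 6.73, 6.86 and 6.45 TPM in hyp/hyp leaves, against 2.05, 1.83 and 3.15 TPM in WT leaves (log2 difference 1.22, SE 0.23, adjusted p = 0.0055). Of 37 genes of the photosystems and light harvesting, limma and voom called none, with 7 at an unadjusted p under 0.05. By the adjusted p-value alone 4 were higher, near the 11.3% over all genes, and none was lower, against 9.33%. LHCB2.3, a light-harvesting protein of photosystem II, was among the 4 (log2 difference 0.80, SE 0.21, adjusted p = 0.0253), and was called without hyp/hyp replicate 3, at 1.03.

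The 3 genes PnsL3, CRR7 and PSB28 were chosen after their values were seen, because they were called lower, and stand for no group. PnsL3, a subunit of the chloroplast NADH dehydrogenase-like complex, had 24.9, 22.8 and 18.5 TPM in hyp/hyp leaves, against 56.9, 56.7 and 57.7 TPM in WT leaves (log2 difference −1.35, SE 0.15, adjusted p = 4.37e-04), and shares bases with AT3G01450. CRR7, needed for the same complex, had 30.3, 22.2 and 21.2 TPM in hyp/hyp leaves, against 53.4, 54.8 and 54.2 TPM in WT leaves (log2 difference −1.13, SE 0.13, adjusted p = 5.74e-04). PSB28, a photosystem II assembly protein, had 58.3, 57.7 and 54.3 TPM in hyp/hyp leaves, against 124, 116 and 114 TPM in WT leaves (log2 difference −1.04, SE 0.15, adjusted p = 0.00163). No hyp/hyp library reached a WT library in any of them.

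Of 11 mesophyll markers 5 were lower by the adjusted p-value alone, against 9.33% over all genes, and limma called none. They summed to 65658 to 78510 TPM in hyp/hyp libraries and 85314 to 89022 TPM in WT libraries, with a median difference of −0.14 over 11 genes, 5 of which are Calvin cycle genes too, and none was at 0. By library their median lay −0.10, −0.09 and −0.49 from the WT mean in hyp/hyp replicates 1, 2 and 3, so replicate 3 was the lowest. The part of the mesophyll share in the chloroplast genes was not tested. Ribosomal protein genes had a median of −0.16 over 279 genes, and the 1 call, AT5G27850, was higher (1.12), against 2.28% called higher over all genes. By the adjusted p-value alone 44 were lower and 4 higher, where 9.33% and 11.3% of all genes were.

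**Figure D4:**
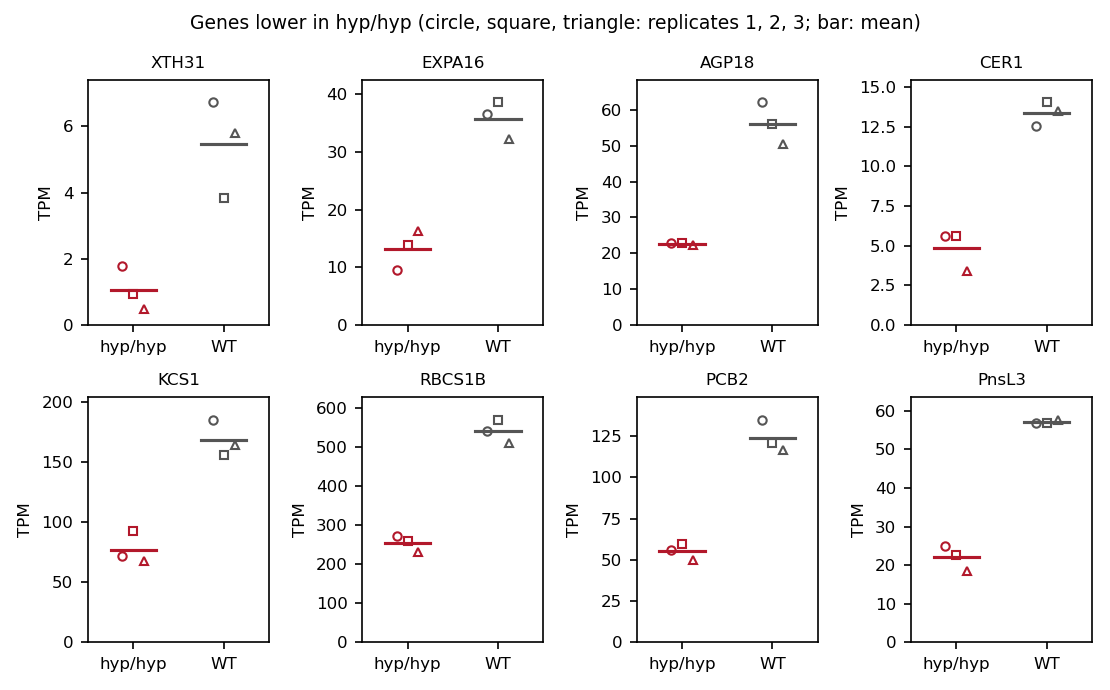
TPM of 8 genes lower in hyp/hyp, with each library as a point (circle, square and triangle for replicates 1, 2 and 3) and the mean as a bar, hyp/hyp left and WT right. In each gene the 3 hyp/hyp points lie under the 3 WT points, as for PnsL3 with 22.03 TPM in hyp/hyp and 57.1 TPM in WT on average.

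Among the largest changes in abundance of called genes were genes outside these groups. AT3G45730, uncharacterized, had 279.8, 281 and 354 TPM in hyp/hyp leaves, against 34.1, 29.99 and 33.3 TPM in WT leaves (log2 difference 3.18, SE 0.14, adjusted p = 6.03e-07), a 9.39-fold rise. GASA1, a gibberellin-regulated peptide of cell elongation, fell to 428, 455 and 485 TPM in hyp/hyp leaves, against 1209.6, 1628 and 804 TPM in WT leaves (log2 difference −1.35, SE 0.24, adjusted p = 0.00404). GAMMA-TIP, a water channel of the vacuole membrane, fell to 288, 322 and 218 TPM in hyp/hyp leaves, against 669, 640.5 and 544 TPM in WT leaves (log2 difference −1.17, SE 0.16, adjusted p = 0.00149). AT2G10940, of the lipid transfer protein family, was called lower at −1.06, and the call was lost at −0.93 (adjusted p = 0.0216) without hyp/hyp replicate 3 and under quantile normalization. MES18, a methyl esterase family gene, fell to 18.3, 17.2 and 12.3 TPM in hyp/hyp leaves, against 65.2, 62.2 and 57.7 TPM in WT leaves (log2 difference −1.91, SE 0.15, adjusted p = 3.58e-05), and shares bases with AT5G58300.

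Over the 53 gene lists, 27 had calls higher without any lower, 5 calls lower without any higher, 10 calls in both directions and 11 no call. The lists hold 2601 of the genes tested, with 92 of the 402 genes called higher and 30 of the 89 called lower. Most called genes thus belong to no list, and 78 of the 491 are described as uncharacterized, hypothetical or of unknown function.

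Several calls among detoxification and cold genes were lost without hyp/hyp replicate 3. Of 28 glutathione transferases, enzymes that conjugate toxic compounds, 3 were called higher (2.28% over all genes), and 1 without hyp/hyp replicate 3. GSTF3 kept its call, with 12.6, 10.97 and 17.4 TPM in hyp/hyp leaves, against 4.83, 4.56 and 5.82 TPM in WT leaves (log2 difference 1.25, SE 0.23, adjusted p = 0.00482). CBF1 and CBF2, transcription factors of cold acclimation, were the calls among 20 cold response genes, at 1.03 and 1.07 (2.28% higher over all genes). Both calls were lost without that library (adjusted p = 0.0236 for CBF1 and 0.0511 for CBF2) and without WT replicate 1 or 2, and that of CBF2 without hyp/hyp replicate 2 as well. With quantile normalization neither was called, and with median-of-ratios scaling CBF1 was not.

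The hormone lists other than salicylic acid differed from each other. For ethylene 3 of 27 genes were called higher (11.1%), and for jasmonate 1 of 33 (3.03%), where 2.28% of all genes were. Of the jasmonate genes 28 had a positive difference, with a median of 0.49, and 0.33 without hyp/hyp replicate 3. By the adjusted p-value alone 8 jasmonate genes were higher and 1 lower, where 11.3% and 9.33% of all genes were. The ethylene median was 0.13. WES1 (GH3.5), which conjugates auxin to amino acids, was the single call among 55 genes of auxin signalling and synthesis (2.28% higher over all genes). Its log2 difference was 1.16 (SE 0.20, adjusted p = 0.00348). HAI1, a phosphatase of abscisic acid signalling, was the single call among 34 genes of abscisic acid and drought (0.505% lower over all genes). It had 0.394, 0.548 and 0.926 TPM in hyp/hyp leaves, against 2.25, 3.1 and 2.45 TPM in WT leaves (log2 difference −1.16, SE 0.25, adjusted p = 0.0098). HAI1 lost its call with a pseudocount of 0.1 and under voom. Limma called none of 25 cytokinin genes and none of 53 small auxin-up RNAs, with 11 and 21 at an unadjusted p under 0.05, and voom called 3 of each list.

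**Figure D5:**
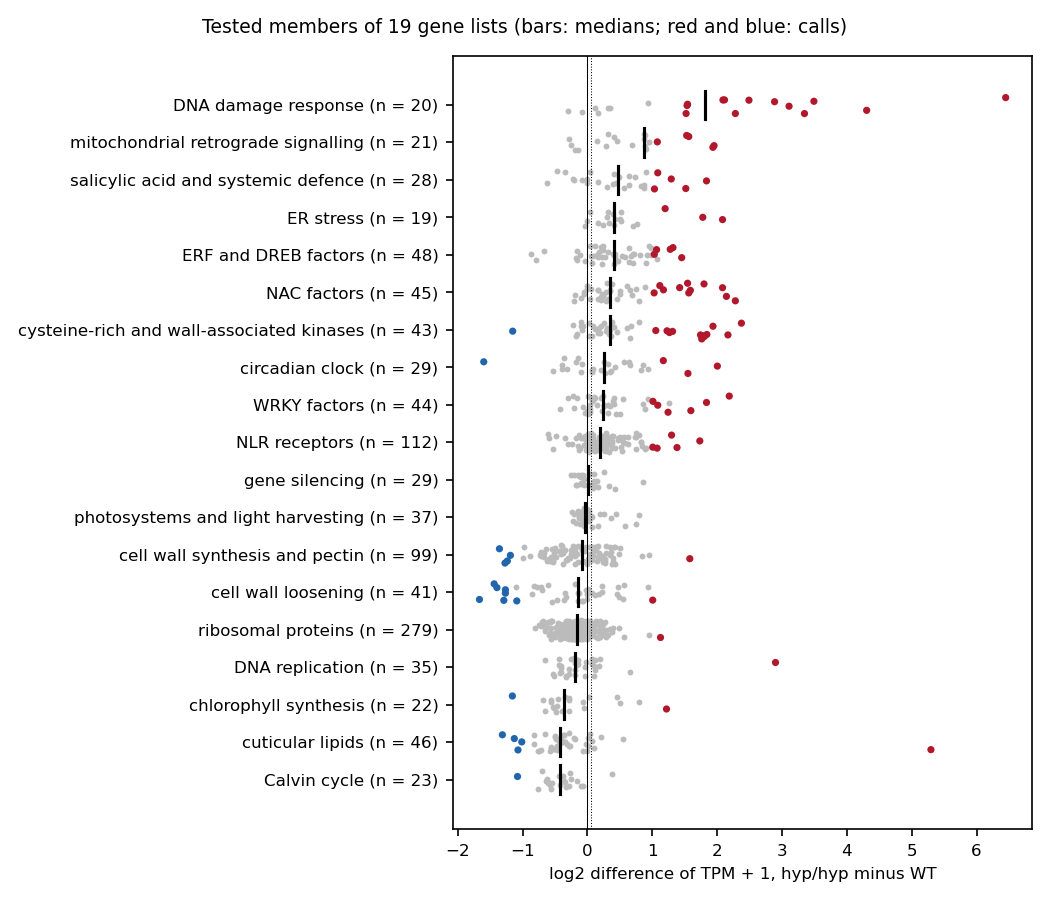
Log2 differences of the tested members of 19 gene lists, hyp/hyp minus WT, as points (red called higher, blue called lower, grey not called) with the median as a black bar and the median over all genes as a dotted line. DNA damage, mitochondrial, ER and defence lists lie to the right. Among the 19 lists shown, cuticular lipids (−0.42) and the Calvin cycle (−0.42) lie furthest to the left. Of all 53 lists, defensins and small secreted peptides had the lowest median (−0.465 over 10 genes).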

How the data were processed

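Total RNA from leaves was sequenced in 9 libraries. The authors deposited expression as TPM, 1 table for the series, per the file headers. The submitters' processing notes name fastp 0.20.1, HISAT2 2.1.10, DESeq2 1.26.0 and build TAIR10, with no role for each. The counting program, its annotation, its use of strand and the treatment of multi-mapping reads are not given in the sources used here.

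The values hold whole reads: TPM times gene length is a multiple of 1 step per library for 99.98% of values above 0 (within 0.02 reads), which gave the depths and the reads printed. Floors of 3 reads cover counting error only. With limma 3.58.1 (R 4.3.3), log2(TPM + 1) of the 17632 genes was fitted over the 9 libraries with genotype as the factor. The third genotype served only to estimate the spread (6 residual degrees of freedom). P-values were adjusted by Benjamini-Hochberg over the 17632 genes. Because of the pseudocount, a log2 difference understates the change of low genes.

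Gene names, positions and sequences come from RefSeq TAIR10.1, which matched 27445 of 27655 genes. The genes named are ATXR5 and ATXR6, the 12 highest and 12 lowest called differences without overlap, the 4 largest rises and falls in TPM among called genes, and up to 4 called members of each of 53 lists (2 uncalled where none was called). Genes named outside this rule were chosen after their values were seen. The lists and the comparison were chosen with earlier results of these data known. The fit was tested on simulated data. Alternatives were the pseudocount, expression minimum, scaling, the 6 libraries alone, a replicate block, no mean-variance trend, voom on the recovered reads and each library left out. Reads of paralogues are uncertain where 50-base windows recur in the genome.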

Additional observations from a re-analysis of the deposited data

How the results depend on the processing

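Counts of called genes kept within 1.5 times of 491 in all, 402 higher and 89 lower, except that lower calls were 135 with a pseudocount of 0.1 and 138 with limma voom on the recovered reads, and that the adjusted p-value alone passed 3634 genes (1989 higher, 1645 lower). With a library left out the counts were 380 to 652 in all, 316 to 558 higher and 64 to 97 lower. A replicate block in the fit gave 463 calls (375 higher, 88 lower). Deviations from the genotype means correlated at 0.069, −0.071 and 0.049 for same-numbered hyp/hyp and WT libraries. Of the 6 libraries, 2 correlated best with the library of their own number. With 3 libraries a side, these values cannot tell whether same-numbered libraries shared a harvest or preparation, and the labels do not say. Quantile normalization moved the median over all genes to −0.02 and median-of-ratios scaling to 0.01, against 0.06 as reported. Of the 149 named genes that were called, 111 were called in every alternative and none changed sign, and 164 of 2353 repeats lost the call. Of 943 repeats of a list's median, 932 moved by less than the spread between replicates and 11 by more. The cause of these changes was not tested. Recovered depth was lower in hyp/hyp, and genes under 1 TPM had no test. Log2 values were also simulated, with normal noise around the WT means. Of genes changed by 1.5 (log2), 47 of 50 were called, and 50 of 50 changed by −1.5, 2 or −2. Of unchanged genes, 1 of 17432 was called. The changed genes were drawn from well-expressed genes only, and no simulated library stood apart. These rates therefore do not cover low genes or genes far higher in hyp/hyp replicate 3.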

Other observations

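Other gene families had calls in both directions or lower. Of 39 tested UDP-glycosyltransferases, which attach sugars to hormones and defence compounds, 2 were called higher and 3 lower (2.28% and 0.505% over all genes), and 1 higher and 2 lower without hyp/hyp replicate 3. UGT76E11 had 3.24, 3.84 and 2.6 TPM in hyp/hyp leaves, against 10.97, 7.48 and 10.6 TPM in WT leaves (log2 difference −1.33, SE 0.20, adjusted p = 0.00197), and UGT85A3 had 1.07, 1.39 and 0.877 TPM in hyp/hyp leaves, against 4.71, 3.96 and 3.59 TPM in WT leaves (log2 difference −1.27, SE 0.13, adjusted p = 3.28e-04). Of 10 tested defensins and small secreted peptides 2 were called lower (0.505% over all genes), and 4 without hyp/hyp replicate 3. The list holds 155 genes, most of them under the minimum for testing. AT3G59930, a defensin-like gene, had 2.33, 2.99 and 1.83 TPM in hyp/hyp leaves, against 7.02, 6.82 and 6.81 TPM in WT leaves (log2 difference −1.24, SE 0.23, adjusted p = 0.00488), but 18.7% of its 50-base windows occur elsewhere in the genome.

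Of 34 transporters of the MATE class, which export organic compounds, AT2G04070 was the single call (2.28% higher over all genes). It had 3.86, 4.66 and 8.08 TPM in hyp/hyp leaves, against 1.59, 1.52 and 1.51 TPM in WT leaves (log2 difference 1.31, SE 0.22, adjusted p = 0.00335). AT2G18190, a P-loop ATPase gene next to AT2G18193, had 3.72, 3.36 and 4.5 TPM in hyp/hyp leaves, against 0.0326, 0 and 0 TPM in WT leaves (log2 difference 2.26, SE 0.21, adjusted p = 1.23e-04). TRFL10, of the family related to telomere-binding factors, had 28.01, 32.2 and 30.2 TPM in hyp/hyp leaves, against 4.77, 3.48 and 2.6 TPM in WT leaves (log2 difference 2.78, SE 0.16, adjusted p = 3.88e-06), and was chosen after its values were seen. ChlAKR, a chloroplast aldo-keto reductase, was among the 12 lowest differences, with 0.671, 1.02 and 0.644 TPM in hyp/hyp leaves, against 4.06, 4.63 and 2.81 TPM in WT leaves (log2 difference −1.43, SE 0.24, adjusted p = 0.00342).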
